A study of Drosophila melanogaster with 9 samples.

Results

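This is a description of the transcripts of the glycolytic enzymes and of lactate dehydrogenase in metastatic intestinal tumors of Drosophila that were passed from host to host over repeated rounds of transplantation. The members were listed by name as Hex-A, Pgi, Pfk, Tpi, Gapdh1, Gapdh2, Pgk, Eno, PyK and Ldh, and a probe set was taken where the annotation of the array gives it 1 symbol and that symbol, or an older synonym such as ImpL3 for Ldh, is a member. Of the 10 members, 7 had a named probe set, with 1 probe set each, among 18769 probe sets tested. Gapdh2, PyK and Ldh were not matched to a named probe set and are not analysed here, so the last step of glycolysis and the conversion of pyruvate to lactate are without a value.

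Glycolysis splits glucose into pyruvate in the cytosol and yields ATP and NADH. Hexokinase, phosphofructokinase and pyruvate kinase catalyze its committed, nearly irreversible steps, and lactate dehydrogenase can turn pyruvate into lactate and return NADH to NAD+. Many growing tissues and tumors, including fly tumors, are known to use glucose in this way even when oxygen is present, and in Drosophila the estrogen-related receptor ERR and the hypoxia factor sima are known activators of glycolytic genes.

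The 9 samples were tumors of 1 genotype, with 3 arrays each at the first (T1), second (T2) and 10th (T10) round of transplantation. The starting material was 3 large abdominal metastases from 3 flies that carried Apc-Ras-Sna clones in the gut. Clone cells were homozygous for ApcQ8, a null allele, and Apc2N175K, a loss-of-function allele, and esg-Gal4, a driver of intestinal progenitor cells, directed UAS-RasV12 (a gain-of-function transgene), UAS-Sna (Snail), UAS-GFP and UAS-Luciferase in them. Hosts were young adult yw females, each tumor was cut at dissection so that a piece gave RNA and the rest went on to new hosts, and no normal gut or untransplanted tumor was compared. The labels give 25 °C for the hosts, and the methods of the study a higher temperature. They name the arrays within each round as technical replicates, and do not say that a replicate number follows 1 metastasis through the rounds, so a p-value here measures only the spread from array to array, which may be technical.

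Values are log2 expression after robust multi-array averaging (RMA), so a difference of 1 is a 2-fold change. They ranged from 2.94 to 13.78 over the probe sets, with array medians of 6.49 to 6.73, and 3 arrays a round set the precision. T2 replicate 3 did not resemble the rest of T2. Across probe sets, taken as a description only, it correlated by 0.984 with T10 replicate 3 and by 0.932 and 0.95 with T2 replicates 1 and 2, so results against T2 are given with and without it. Of the defining genes of the labelled origin, esg was at 9.39 to 11.23 and sna at 7.9 to 11.27 on the 9 arrays. The list of intestinal progenitor genes held both of them with Delta, Sox21a and Sox100B, although sna was also a transgene of the clones. The mean level of 5 of 5 listed genes was 9.58 to 10.24 in T1, 8.75 to 10.56 in T2 and 7.96 to 8.97 in T10. Between T1 and T10, 4 of the 5 had a log2 change below 0, with a median of -1.72 over the list. Sox100B had a log2 change of -4.56 (limma adjusted p = 0.102 on 9 arrays and 0.000761 in a fit on T1 and T10 alone). Sox21a had a mean of 12 in T1 and 8.01 in T10. Delta went the other way, with a log2 change of 3.36 (limma adjusted p = 0.0831 and 0.00877 in the same fits).

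The first enzymes of the pathway act on 6-carbon sugars. Hex-A, the hexokinase that traps glucose as glucose 6-phosphate (probe set 1625638_a_at), had log2 values of 12.49, 12.35 and 12.34 in T1 replicates 1 to 3, 12.23, 12.18 and 11.91 in T2, and 12.52, 12.02 and 11.93 in T10. The T1 and T2 arrays did not overlap, and T10 replicate 1 alone was above the highest T1 value. Pgi, the isomerase that makes fructose 6-phosphate (1638550_s_at), was at 12.26, 12.46 and 12.17 in T1, 12.23, 12.31 and 11.73 in T2, and 12.14, 11.86 and 11.70 in T10. All 3 T10 values were below the lowest T1 value, by 0.03 at the nearest pair. Pfk, phosphofructokinase, the chief control point of the pathway (1634739_a_at), was at 12.46, 12.66 and 12.31 in T1, 12.39, 12.33 and 11.72 in T2, and 12.48, 12.37 and 11.92 in T10. Its rounds overlapped, and replicate 3 of T2 and of T10 lay below the 7 other arrays.

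The later enzymes act on 3-carbon sugars. Tpi, triose phosphate isomerase (1637816_s_at), was at 11.42, 11.54 and 10.89 in T1, 11.31, 11.11 and 10.74 in T2, and 11.64, 11.64 and 10.88 in T10, so replicate 3 was low in every round. Gapdh1, a glyceraldehyde 3-phosphate dehydrogenase and the NADH-forming step of the pathway (1640907_at), was at 11.79, 11.99 and 11.63 in T1, 12, 11.65 and 11.34 in T2, and 12.05, 11.81 and 11.34 in T10. Here too the rounds overlapped. Pgk, phosphoglycerate kinase, which makes the first ATP of the pathway (1639766_at), was at 10.73, 10.97 and 10.68 in T1, 11.04, 10.67 and 10.03 in T2, and 10.75, 10.64 and 10.06 in T10. Replicate 3 of T2 and of T10 was at least 0.58 below every other array on the log2 scale. Eno, enolase (1634065_s_at), was at 12.49, 12.58 and 12.38 in T1, 12.53, 12.43 and 12.07 in T2, and 12.68, 12.50 and 12.16 in T10, with the 2 low arrays the same as for Pgk. The probe sets of Pgi, Tpi and Eno have names ending in _s_at, which Affymetrix gives to sets that may match transcripts of more than 1 gene, although the annotation lists 1 gene for each.

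**Figure D1:**
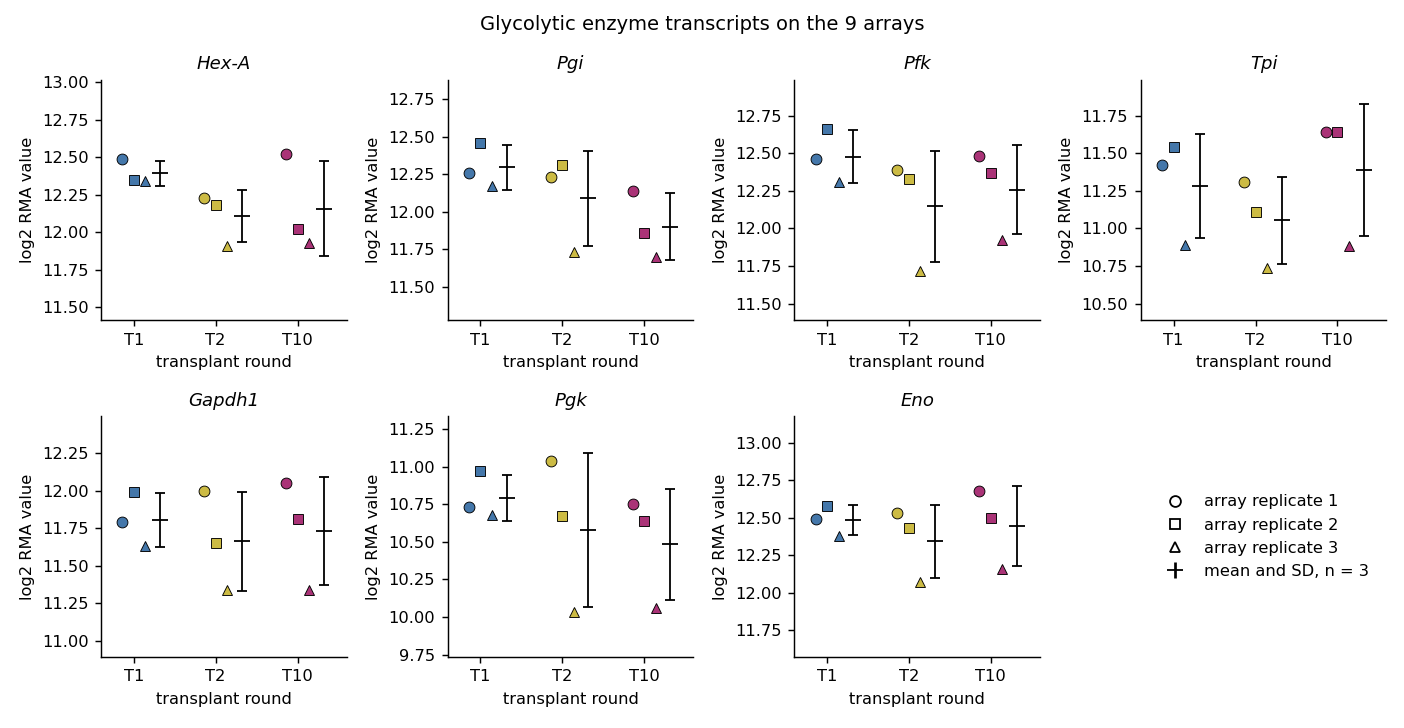
Log2 RMA values (vertical axes, each spanning 1.6 log2 units) of the 7 glycolytic enzymes by transplant round (horizontal axes), with a symbol per array replicate number and the mean and SD of 3 arrays in black. In every panel the triangle of replicate 3 is the lowest of its round, and the triangles of T2 and T10 are the 2 lowest of the 9 arrays.

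Whether the enzymes' transcripts changed between T1 and T10 was tested with limma on all 9 arrays, with p-values adjusted by Benjamini-Hochberg over all 18769 probe sets. None of the 7 members passed an adjusted p under 0.05 in T10 against T1, where 0.0107% of all probe sets passed, and 0 had an unadjusted p under 0.05. Pgi had the largest log2 change of the members, -0.40 (standard error 0.185, adjusted p = 0.274, 95% interval -0.82 to 0.03), or 0.76-fold, and was lower in 3 of 3 T10 arrays. It was the 1 member whose T10 and T1 arrays did not overlap, against 28.1% of all probe sets. The log2 changes of the others were -0.31 for Pgk, -0.24 for Hex-A, -0.22 for Pfk, -0.07 for Gapdh1, -0.04 for Eno and 0.10 for Tpi, with standard errors of 0.169 to 0.278. The median of the 7 was -0.22 and that of all probe sets -0.01. The 95% intervals, which are per gene and not adjusted for the number of genes, reached down to 0.516-fold for Pgk and up to 1.66-fold for Tpi, so for each measured enzyme a 2-fold change either way lay outside its interval. In bulk tumor pieces, fewer cells of a type and less RNA per cell cannot be told apart.

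The fit without T2 replicate 3 and the fit on T1 and T10 alone have the same fold changes for T10 against T1 by construction, since no T2 array enters them. Without that array 7.62% of all probe sets passed in T10 against T1, and in the fit on these 2 rounds 5.98%, while 0 of the 7 members passed in either. Pgi came nearest, with an adjusted p of 0.146 without T2 replicate 3 and 0.195 in the fit on the 2 rounds, and it was the 1 member with an unadjusted p under 0.05 in each of them.

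From the first to the second round, no member passed in T2 against T1, with 0.00533% of all probe sets past the threshold on the 9 arrays and 0.00533% without T2 replicate 3. All 7 log2 changes were below 0, from -0.33 for Pfk (standard error 0.221, adjusted p = 0.764) and -0.29 for Hex-A (standard error 0.169, adjusted p = 0.763) to -0.14 for Gapdh1 and Eno, with a median of -0.21 against -0.03 over all probe sets. Hex-A was the 1 member with no overlap between T2 and T1, against 9.43% of all probe sets. The shift of the median rested on 1 array. Without T2 replicate 3 the median of the members was -0.03 against -0.04 over all probe sets, and the changes of Gapdh1 and Pgk turned to 0.02 and 0.06. The other 5 stayed below 0, at -0.19 for Hex-A, -0.12 for Pfk, -0.07 for Tpi, -0.03 for Pgi and -0.00333 for Eno. Hex-A on T2 replicates 1 and 2 (12.23 and 12.18) was below every T1 array without that array too.

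In T10 against T2, no probe set of the array passed on the 9 arrays (0%, by limma, with 3200 at an unadjusted p under 0.05), and 0 of the 7 members passed or had an unadjusted p under 0.05. The log2 changes ran from -0.19 for Pgi to 0.33 for Tpi (standard error 0.27, adjusted p = 0.534), with a median of 0.07. No member was without overlap, against 21.3% of all probe sets. Without T2 replicate 3, 7.46% of all probe sets passed and none of the members did. The log2 change was then -0.37 for Pgi (standard error 0.157, adjusted p = 0.226) and -0.37 for Pgk (standard error 0.232, adjusted p = 0.4), the median was -0.09, and Hex-A, Pfk, Gapdh1 and Eno changed sign to values between -0.10 and -0.03. The comparisons share arrays and are not independent of each other.

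**Figure D2:**
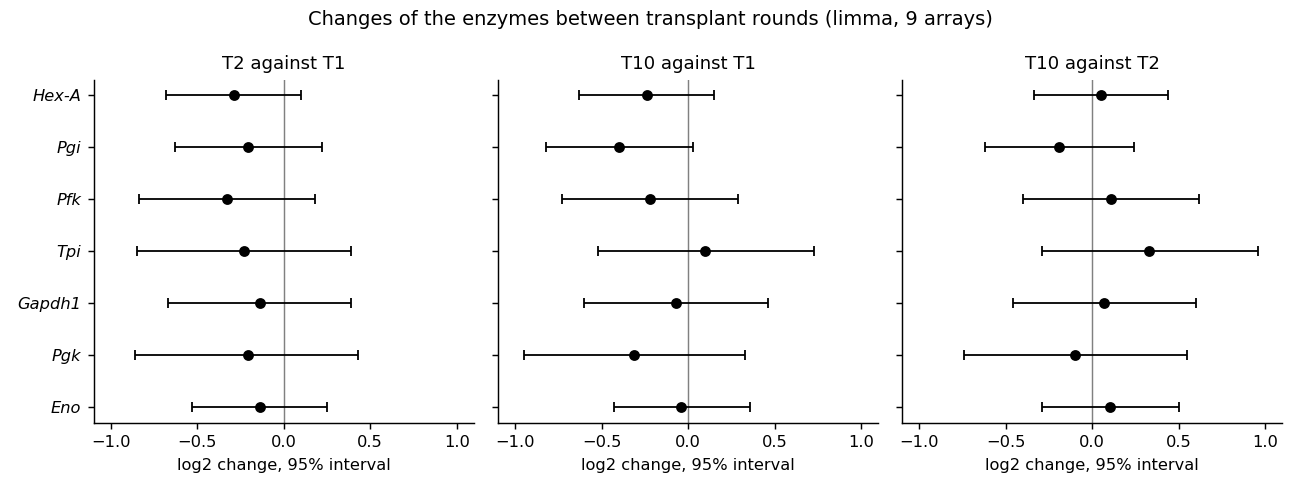
Log2 changes of the 7 enzymes (points) with 95% intervals (bars) from limma on 9 arrays, for T2 against T1, T10 against T1 and T10 against T2 on a shared horizontal axis. Every interval crosses 0, and in T2 against T1 all 7 points lie below 0.

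In each member the 3 arrays of T2, and those of T10, differed by more than the means of any pair of rounds. In all 7 members T2 replicate 3 and T10 replicate 3 were the 2 lowest of the 9 arrays, which was so for 5.38% of all probe sets. Replicate 3 was the lowest array of every round in all 7, which was so for 6.16%. This pattern was seen in the values and then counted, so it is given as a description with no test. Beside it stands the correlation of 0.984 between these 2 arrays across all probe sets. The mean of the 2 arrays was below that of the other 7 by 0.74 for Pgk, 0.61 for Pfk, 0.55 for Tpi, 0.51 for Gapdh1, 0.49 for Pgi, 0.40 for Eno and 0.38 for Hex-A on the log2 scale, whereas the median difference over all probe sets was -0.03. Within T10, replicate 3 lay below replicate 1 by 0.44 for Pgi to 0.76 for Tpi, and in T1 the gap from replicate 3 to the next array was as small as 0.01 for Hex-A.

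On average over the members, T10 replicates 1 and 2 did not share the low values. By gene, T10 replicate 2 was the next lowest array for Hex-A (12.02), Pgi (11.86) and Pgk (10.64), below every T1 value. As the mean deviation of the 7 members from their 9-array means, T10 replicate 1 was at 0.23 and T10 replicate 2 at 0.03, against -0.38 for T10 replicate 3 and -0.44 for T2 replicate 3. The 9 tracheal marker genes measured of 12 listed, such as verm and serp, had a mean level of 6.43 to 8.01 in T1 and 10.43 to 11.17 in T10, with T2 replicate 3 at 10.56 and T10 replicate 3 at 10.43. The mean of these markers was thus high in T2 replicate 3 and in all 3 T10 arrays. The mean of the enzymes was low in T2 replicate 3 and in 1 T10 array. Of the 9 tracheal genes, 1 had a log2 change below 0 between T10 and T1, namely the FGF receptor gene btl at -1.51. On T2 replicate 3 btl was at 8.11, against 8.99 to 10.58 in T1 and 7.69 to 8.45 in T10. Muscle is a host tissue rich in glycolytic enzymes. The mean level of 17 of 22 listed muscle genes was 5.09 to 6.63 in T1, 4.97 to 6.97 in T2 and 5.15 to 6.03 in T10, and it was 5.18 in T2 replicate 3 and 6.03 in T10 replicate 3, within the range of the other arrays in both. That of 12 of 12 fat body genes was 5.78 to 6.19, 6 to 7.42 and 5.73 to 5.9, with 6 in T2 replicate 3 and 5.77 in T10 replicate 3. Of 11 listed enterocyte genes 8 were measured, with a mean level of 7.2 to 7.96 in T1, 6.47 to 8.36 in T2 and 6.51 to 6.64 in T10. T2 replicate 3 at 6.47 and T10 replicate 3 at 6.51 were the 2 lowest arrays, with T10 replicates 1 and 2 no higher than 6.64. By gene, 5 of the 8 had a log2 change below 0 between T10 and T1. The part of these tissues and cells in the enzymes' values was not tested.

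The enzymes therefore varied together from array to array. Over the 9 arrays the 21 pairs of members correlated with Pearson's r of 0.46 to 0.966 (median 0.816). Without T2 replicate 3 the median was 0.734, and without replicate 3 of both T2 and T10 it was 0.46, with a range from -0.245 to 0.923 over 7 arrays. The arrays share amplification and normalization, so these are descriptions. Of 5022 named probe sets with a range of at least 1 log2, the 5 whose values over the 9 arrays correlated best with the mean of the members were CG30056 (r = 0.928), Indy (0.927), fra (0.917), CG2076 (0.912) and kermit (0.911). Indy encodes a citrate transporter, fra a Netrin receptor and kermit a PDZ-domain protein. CG30056 ranged from 6.43 on T2 replicate 3 to 8.75 on T1 replicate 2. The 9-array ranges of the enzymes were 0.61 to 1.01, so the required range of at least 1 log2 favors genes with wider spans than theirs. The same ranking for Ldh could not be made.

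The other steps between glucose and pyruvate were measured by neighbors of the members. Ald1, the aldolase that splits fructose 1,6-bisphosphate, has 2 probe sets that did not move alike. The brighter (1631993_s_at) was at 12.19, 12.22 and 12.23 in T1, 12.27, 12.14 and 11.83 in T2, and 12.40, 12.36 and 11.97 in T10, a log2 change between T10 and T1 of 0.03 (standard error 0.153), and it too was lowest on T2 replicate 3 and T10 replicate 3. The other (1633473_s_at) was at 11.16, 11.47 and 10.69 in T1, 11.18, 11.18 and 11.53 in T2, and 12.46, 12.40 and 11.43 in T10, which is a difference between T10 and T1 of 0.99 on the log2 scale (standard error 0.309, adjusted p = 0.133), and the correlation of the 2 probe sets over the 9 arrays was 0.376. T10 replicates 1 and 2 stood above all other arrays on the second probe set, by at least 0.87. Pglym78, a phosphoglycerate mutase, was at 11.38, 11.36 and 10.85 in T1, 11.00, 10.82 and 10.65 in T2, and 11.26, 11.05 and 10.64 in T10, with replicate 3 lowest in each round as in the members.

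Of 14 listed genes for other steps and isozymes, 13 were measured and 0 passed in T10 against T1, with a median log2 change of -0.21. The smallest p-values were those of CG9961, a paralog of phosphoglycerate kinase, with a log2 change of -0.63 (adjusted p = 0.184), and of Pfrx, the enzyme that makes and removes the phosphofructokinase activator fructose 2,6-bisphosphate, with -0.45 (adjusted p = 0.206). Pfrx was at 10.79, 10.71 and 10.69 in T1 and at 10.42, 10.28 and 10.13 in T10, with no overlap. Values of T2 lay on both sides, at 11.02, 10.59 and 10.29.

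Around the core pathway, 85 further genes of 10 lists were measured, from sugar uptake to the TCA cycle and the regulators of glycolytic genes. None passed in T10 against T1 on the 9 arrays, where 20 of the 85 (23.5%) had an unadjusted p under 0.05, against 20.8% of all probe sets. In the fit on these 2 rounds 0 were higher and 3 lower, or 3.53% against 5.98% of all probe sets, and without T2 replicate 3, 0 were higher and 4 lower, or 4.71% against 7.62%. The median change of the 85 was -0.23, against -0.01 over all probe sets, and 59 were below 0. The 4 were Pgm1, sug, out and Men-b.

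Pgm1, the phosphoglucomutase that joins glycogen to glucose 6-phosphate, was at 12.09, 12.18 and 11.76 in T1, 11.87, 11.94 and 10.75 in T2, and 10.58, 10.86 and 10.67 in T10. T2 replicate 3 fell among the T10 arrays, and the other 5 arrays of T1 and T2 were at least 0.90 above every T10 array. The log2 change between T10 and T1 was -1.31 (standard error 0.305) or 0.404-fold, with an adjusted p from limma of 0.0927 on 9 arrays, 0.0111 in the fit on T1 and T10 and 0.00407 without T2 replicate 3. The smooth septate junction genes of enterocytes had T2 replicate 3 near T10 too. In T1, T2 replicates 1 and 2, T2 replicate 3 and T10, mesh was at 8.89 to 11.21, 12.17 and 11.85, 5.63, and 4.69 to 6.13, and mesh, Tsp2A and Ssk were lower in T10 than in T1 in the fits on these rounds and without T2 replicate 3. Not all enterocyte genes went this way, as 5 of the 8 measured had a log2 change below 0 between T10 and T1. Of the rest, betaTry and Jon65Aiii were dim and nearly unchanged, with means of 4.4 and 4.17 in T1 and 4.49 and 4.17 in T10. Among the 5, alphaTry was dim too, at 4.81 in T1 and 4.52 in T10. The enterocyte gene nub was at 6.68 to 7.34 in T1, 8.08 on T2 replicate 3 and 7.76 to 9.69 in T10. The part of enterocytes in the change of Pgm1 was not tested. The sugar-responsive transcription factor sug (sugarbabe) was at 8.02, 8.17 and 7.31 in T1, 8.22, 7.56 and 6.67 in T2, and 6.15, 6.37 and 6.51 in T10. Its T10 arrays lay below all others, with a log2 change of -1.49 and adjusted p-values of 0.103, 0.0298 and 0.0223 in the same order of fits.

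The gene out (outsiders), of the monocarboxylate transporter family, was at 9.37, 9.92 and 8.92 in T1, 8.97, 8.86 and 6.31 in T2, and 8.02, 7.77 and 7.16 in T10. T2 replicate 3 was the lowest array of all, and the log2 change of T10 against T1 was -1.75 (adjusted p = 0.201, 0.0386 and 0.0194). Men-b, a mitochondrial malic enzyme, was at 11.86, 11.60 and 11.73 in T1, 11.67, 11.67 and 10.62 in T2, and 11.23, 10.63 and 10.66 in T10. Its log2 change of -0.89 passed only without T2 replicate 3 (adjusted p = 0.154, 0.0538 and 0.0286).

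Gpdh1, the cytosolic glycerol 3-phosphate dehydrogenase that draws triose phosphate and NADH away from glycolysis, has 4 probe sets, with log2 changes between T10 and T1 of -0.89, -0.95, -1.37 and -1.08 from the brightest to the dimmest. The brightest was at 10.46, 9.73 and 10.32 in T1, 10.51, 10.27 and 9.57 in T2, and 9.15, 8.97 and 9.72 in T10. All 3 T10 values lay below those of T1, by 0.01 at the nearest pair. None passed on 9 arrays, and in the fit on the 2 rounds the 2 dimmer sets passed (adjusted p = 0.0243 and 0.0448) and the 2 brighter did not (0.128 and 0.0677).

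**Figure D3:**
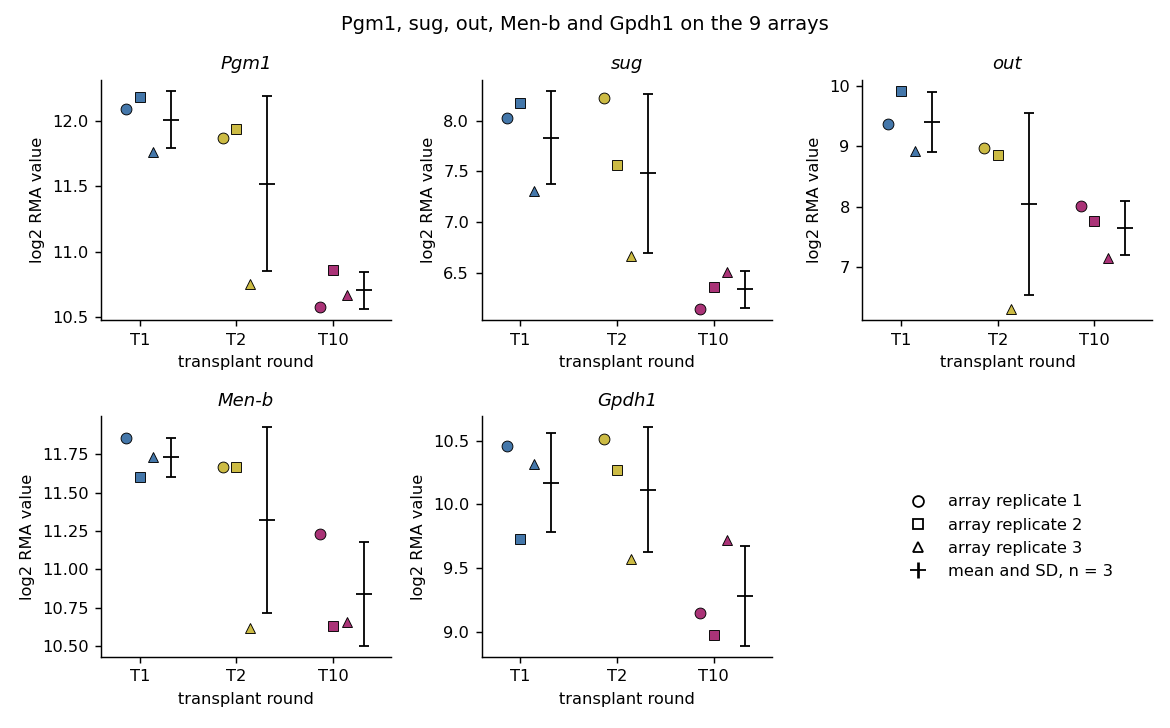
Log2 RMA values (vertical axes, each with its own range) of Pgm1, sug, out, Men-b and the brightest probe set of Gpdh1 by transplant round (horizontal axes), with a symbol per array replicate number and the mean and SD of 3 arrays in black. In T10 all 3 arrays lie below the T1 arrays in each panel, and in Pgm1, out, Men-b and Gpdh1 replicate 3 of T2 lies within or below the T10 range.

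The remaining lists held few or no calls between T10 and T1. Of the TCA cycle, 14 of 17 genes were measured, 0 passed in any of the 3 fits, and the median change was -0.08, with SdhC (-0.34, adjusted p = 0.182) and Idh3b (-0.28, adjusted p = 0.229) at the smallest p-values. Of the pentose phosphate pathway 4 of 8 were measured and 0 passed, with Rpi at -0.47 (adjusted p = 0.247) and the transketolase CG8036 at -0.23 (adjusted p = 0.449). Of sugar uptake and trehalose genes 10 of 11 were measured and 0 passed, with the trehalose transporter Tret1-1 at -0.72 (adjusted p = 0.262) and the sugar transporter sut1 at 0.48 (adjusted p = 0.285). Of the gluconeogenesis genes 4 of 5 were measured, with fbp, fructose 1,6-bisphosphatase, at -0.40 (adjusted p = 0.515) and G6P at 0.16 (adjusted p = 0.673).

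Of 8 hypoxia-induced genes, 6 were measured and 0 passed in any of the 3 fits, with a median of -0.43. The FGF receptor gene btl, also a tracheal marker, was at -1.51 (adjusted p = 0.237) and the prolyl hydroxylase gene Hph at -0.81 (adjusted p = 0.22). Ldh, an established target of the hypoxia factor in flies, was not among those measured. Among 11 of 12 regulators, sug alone passed in the fit on the 2 rounds, and the median was -0.20. For the mitochondrial glycerophosphate oxidase gene Gpo2, of the shuttle list, the log2 change was -1.03 (standard error 0.252, adjusted p = 0.0963), which did not pass in any of the 3 fits. In T10 against T2 without T2 replicate 3, 4 of the 85 passed, or 4.71% against 7.46% of all probe sets. All 4 were lower in T10, namely Pgm1, sug, fbp and Got1, an aspartate aminotransferase, and in the other 2 fits none did.

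The low values on T2 replicate 3 and T10 replicate 3 were not shared by every list. As a list's median deviation from its genes' 9-array means, the TCA cycle was at -0.03 on T2 replicate 3 and -0.01 on T10 replicate 3, and the regulators were at -0.08 and -0.07. Hypoxia-induced genes were at -0.56 and -0.48, glycogen genes at -0.43 and -0.57, and the members at -0.39 and -0.37. These 2 arrays were the 2 lowest for 7 of 7 members and for 3 of 13 genes of the other glycolytic steps, Ald1 (brighter probe set) and Pglym78 among them. They were so for 4 of 10 shuttle genes, 3 of 10 of pyruvate and lactate handling, 2 of 4 of the pentose phosphate pathway and 2 of 5 glycogen genes. The counts were 2 of 10 for sugar uptake, 1 of 11 for regulators and 1 of 6 for hypoxia-induced genes. They were 0 of 4 for gluconeogenesis and 0 of 14 for the TCA cycle, against 5.38% of all probe sets. The difference between the lists was not tested.

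**Figure D4:**
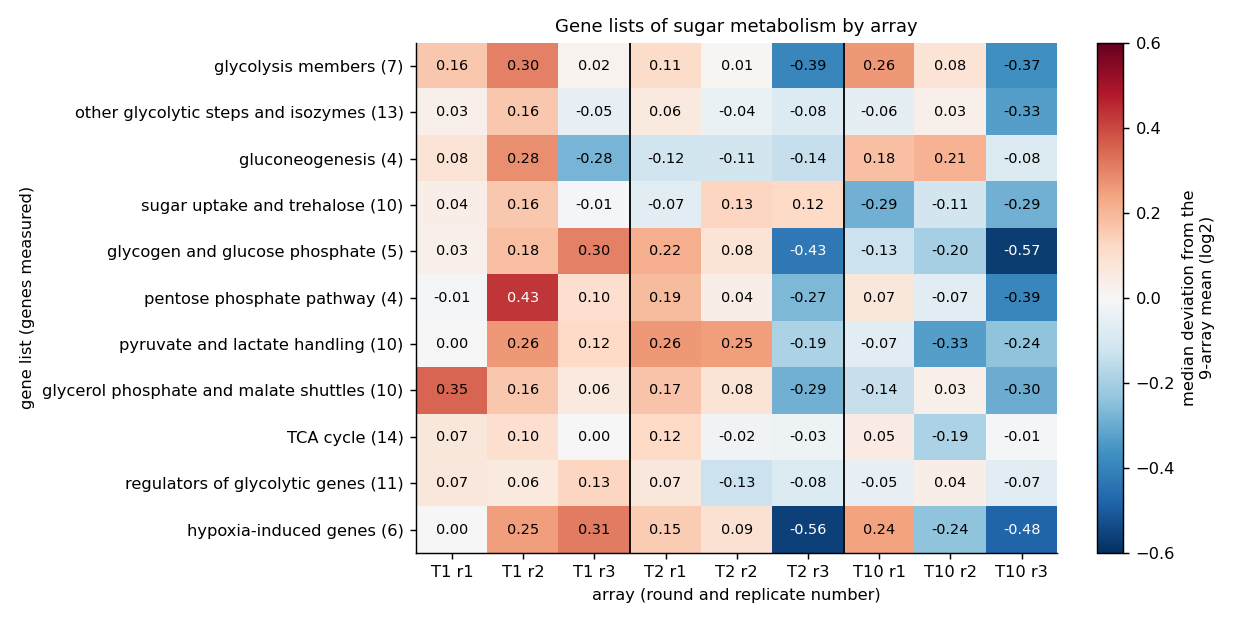
Median deviation of each gene list from its genes' 9-array means (log2, colour and printed value) by array (horizontal axis, r for replicate) for the members and 10 lists of sugar metabolism (vertical axis, genes measured in parentheses). The members are at -0.39 on T2 replicate 3 and -0.37 on T10 replicate 3, and the TCA cycle genes at -0.03 and -0.01 on the same arrays.

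Control probe sets named for GAPDH are often read as a loading reference, and the array holds 7 of them. The 3 with names starting AFFX-Dros-GAPDH followed Gapdh1 over the 9 arrays, with r of 0.703 to 0.793, and were at 12.27 to 13.15. The difference between T10 and T1 on them was 0.10, 0.17 and 0.18, against -0.07 for Gapdh1. The 4 with names starting AFFX-r2-Dros-GAPDH did not, with r of -0.374 to 0.186. Their correlations with the 4 probe sets of Gpdh1 were 0.83 or more for 3 of these controls and 0.561 to 0.817 for the one ending in 5_a_at. The control ending in 3_a_at differed from the brightest probe set of Gpdh1 (1616608_a_at) by at most 0.05 log2 on any array, and the one ending in 3_at differed from the second (1625949_at) by at most 0.11. The differences between T10 and T1 were -0.92 and -0.97 on these 2 controls, and -0.70 and -0.34 on those ending in M_a_at and 5_a_at, against -0.07 for Gapdh1. The files used here do not state the target of these controls.

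**Figure D5:**
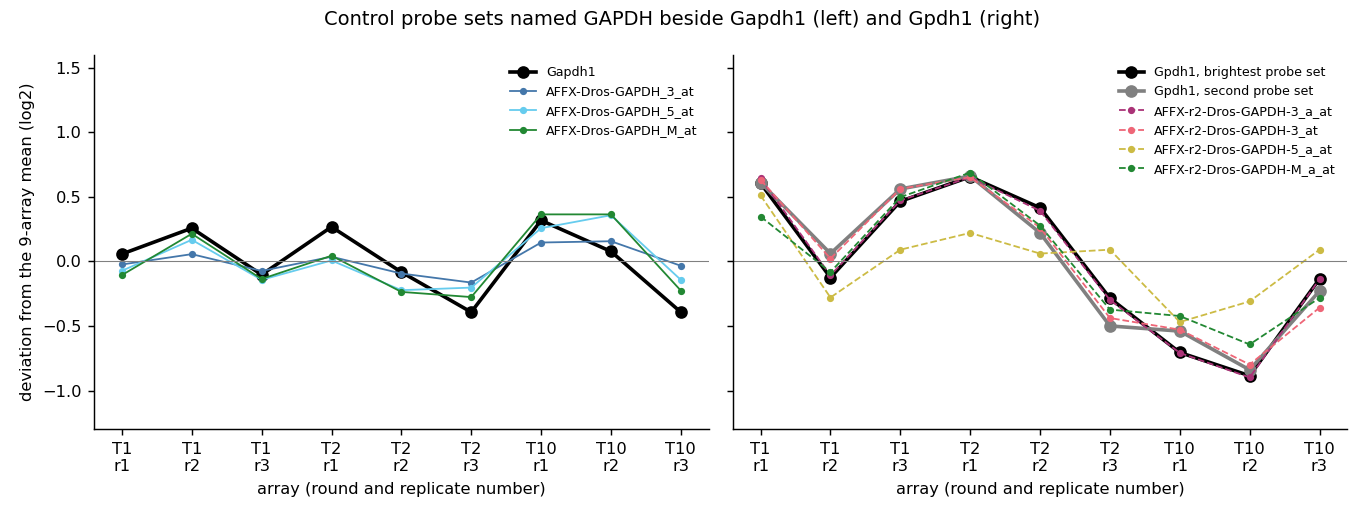
Deviation from the 9-array mean (log2, vertical axis) by array (horizontal axis, r for replicate) for Gapdh1 with the 3 AFFX-Dros-GAPDH controls on the left, and for 2 probe sets of Gpdh1 with the 4 AFFX-r2-Dros-GAPDH controls on the right. On the right the control ending in 3_a_at lies on the line of the brightest Gpdh1 probe set, within 0.05 on every array.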

How the data were processed

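Transcripts were measured on 9 single-color Affymetrix arrays, with 3 for each of T1, T2 and T10. Round and replicate were read from the labels. From 25 ng of total RNA, cDNA was amplified over 17 cycles and 8 µg was labeled. The log2 values deposited by the authors come from RMA background correction and summarization in affy and affyPLM, whose versions the sources used here do not give, and are rounded to 2 decimals. RMA brings arrays to a common distribution and compresses fold changes. The value table had 0 columns that match no sample.

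No scaling was added to these values. Testing covered 18769 of 18952 probe sets, without the 183 controls and with no filter on dim signals. By the platform annotation 13647 probe sets have 1 symbol, 402 have several and 4720 have none. Entrez identifiers served to bring 13544 symbols up to date with RefSeq, for names only. Sequences and positions were not used here.

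Rounds were compared in R 4.3.3 by lmFit and eBayes of limma 3.58.1. The fit held every array and no covariate, and the threshold was an adjusted p (Benjamini-Hochberg) under 0.05. The code was checked on simulated data. Where a gene has several probe sets, its brightest on average stands for it in counts. The members and the 18 other gene lists were chosen with earlier results of these data known. Named are all members, genes of the core steps, the 5 genes most correlated with the members' mean and, from each metabolic list, up to 4 genes past the threshold for T10 against T1, first on 9 arrays and otherwise on the 2 rounds, or else the 2 with the smallest p. Gpdh1, Got1, bnl, the marker examples and the control probe sets were named after their values were seen. Alternatives changed the rounds fitted, the scaling, the filter, the moderation and the array weights, added the replicate number as a block, or left out an array or a replicate number.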

Additional observations from a re-analysis of the deposited data

How the results depend on the processing

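No member passed an adjusted p under 0.05 in any of 3 comparisons under any of 19 alternatives, and the lowest adjusted p was 0.0833, for Pgi in T10 against T1 with array weights. In T10 against T1 the changes of Hex-A, Pgi, Pfk and Pgk stayed below 0 under all alternatives. So did those of Hex-A, Pgi, Pfk, Tpi and Eno in T2 against T1, although Eno came as near to 0 as -0.00333. In T10 against T2 Pgi stayed below and Tpi above 0. Signs of the 10 other changes turned under at least 1 alternative, and the cause was not tested. Some alternatives cannot change the sign of T10 against T1. These are the fits on the 2 rounds, without a T2 array, with the block, on brighter probe sets or with other moderation. With array weights the change of T10 against T1 was -0.0759 for Tpi, and that of T10 against T2 was -0.0244 for Eno, -0.0442 for Gapdh1, -0.077 for Hex-A and -0.0779 for Pfk. Over the fits that leave out an array or a replicate number, T10 against T1 ran from -0.153 to 0.107 for Eno, -0.235 to 0.127 for Gapdh1 and -0.0933 to 0.357 for Tpi. T10 against T2 ran from -0.0333 to 0.247 for Eno, -0.0917 to 0.267 for Gapdh1, -0.132 to 0.163 for Hex-A, -0.103 to 0.278 for Pfk and -0.372 to 0.133 for Pgk. T2 against T1 ran from -0.315 to 0.0217 for Gapdh1 and -0.475 to 0.0617 for Pgk. Centring each array on its median moved the median of all probe sets to 0.13 in T10 against T2 and to -0.137 in T2 against T1. The 2 counts of members by their lowest arrays, 7 of 7 each, were 6 of 7 each under quantile normalization and 7 of 7 under median centring, alternatives chosen after seeing the data. Each named member has 1 probe set, so alternatives over several probe sets are the same fit.

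With the replicate number as a block, 0 members passed in each comparison, the lowest adjusted p was 0.187 (Pgi, T10 against T1), and 1 probe set was higher and 4 lower in T10 than in T1, against 0 and 2 without it. The block lowered the standard error of every member, for Tpi from 0.27 to 0.113. In each comparison 1 member then had an unadjusted limma p under 0.05. These were Pgi in T10 against T1 (0.0282), Tpi in T10 against T2 (0.0267) and Pfk in T2 against T1 (0.0403). Deviations of same-numbered arrays from their round means correlated by -0.284 to 0.188, so the numbers are not shown to pair the samples. The count of all calls in T10 against T1 was 2 on 9 arrays, 1122 on the 2 rounds, 1430 without T2 replicate 3, 1449 without replicate 3 and 1997 with array weights.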

Other observations

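T2 replicate 2 was the highest of the 9 arrays for 10 of the 85 genes of sugar metabolism other than the members, against 7.54% of all probe sets, and for 0 of the 7 members. Among the 10, the testis hexokinase genes Hex-t1 and Hex-t2 were at 7.17 and 7.35 there, against at most 6.14 and 5.99 on any other array, and Tps1, the trehalose 6-phosphate synthase gene, was at 7.94, against at most 6.73. The examples were picked from the measured values, and the pattern was not tested. The same array was the highest for 9 of 17 muscle genes and 7 of 12 fat body genes, but for only 1 of 8 enterocyte genes, LManII. The mean levels of the muscle (6.97), fat body (7.42) and enterocyte (8.36) lists were highest on it. Their part in the values of the 10 genes was not tested. Hex-A on this array was at 12.18, between the other T2 arrays.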
